A study of Mus musculus with 3 samples.

Results

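Leukotrienes are lipid mediators made from arachidonic acid, and the genes described here encode their receptors and the enzymes that make them. The set has 7 genes, of 19935 genes on the array with a probe set of exactly 1 gene symbol. They are the receptor genes Cysltr1, Cysltr2 and Ltb4r1, and the synthesis genes Alox5, Alox5ap, Ltc4s and Lta4h. Each had 1 probe set. The set was selected on the log2 differences between these same arrays, in which Cysltr1 and Cysltr2 stood out, so the levels and differences below are a description and carry no test.

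RNA came from naive CD4+ T cells, helper lymphocytes that have not yet met their antigen, of wild-type C57BL/6 mice aged 8 weeks. There were 3 cultures: cells with IL-21, cells with IL-6 plus TGFb1, and cells with medium and vehicle. IL-21 is a cytokine of activated helper T cells, and IL-6 with TGFb1 is the usual pair for driving cells toward the Th17 lineage in vitro. Each culture was measured on 1 array of 1 sample, so no value has a replicate error and every difference compares 2 arrays. Cytokine doses, time in culture, T cell receptor stimulation and any pooling of mice are not given in the sources used here.

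In the leukotriene pathway, 5-lipoxygenase, helped by its activating protein, turns arachidonic acid into leukotriene A4. Leukotriene A4 hydrolase makes leukotriene B4 from it, and leukotriene C4 synthase joins it to glutathione to make the cysteinyl leukotrienes. Mast cells, eosinophils, neutrophils and macrophages are the best known producers, and T cells are known mainly as cells that respond through receptors.

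Values are probe set intensities on a linear scale, with a median of 182 on the IL-21 array, 188 on the IL-6 plus TGFb1 array and 191 on the medium array. A difference is log2(intensity + 1) of one array minus another, and folds are taken from it. A gene was compared if it reached an intensity of 187, the median of all values, on at least 1 array, which kept 11003 genes. Of the 7 leukotriene genes 3 were compared, namely Cysltr1, Cysltr2 and Lta4h. Cysltr1 and Cysltr2 passed only through the treated arrays, where they were high, so that they were bound to differ from medium. The other 4 genes were below that intensity on all 3 arrays and are given as values. For scale, in the 474 genes with a pair of bright probe sets the difference of one probe set from the other in IL-21 minus medium had a median of 0.07 and a 95th percentile of 0.41. That gap measures how far probe sets of 1 gene disagree, and says nothing of how far repeat cultures would.

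The labelled cell type was checked on marker genes. All 8 measured T cell markers, Cd3e and Cd4 among them, were above an intensity of 187 on every array. Their summed intensity was 38159 with IL-21, 38091 with IL-6 plus TGFb1 and 34992 with medium. Single markers did not all go with the sum: Cd28 had 5248, 5630 and 3945 in the same order, and Cd4 had 6765, 6077 and 6858. Of 36 measured markers of monocytes and macrophages, neutrophils, eosinophils, mast cells and basophils, and dendritic cells, 2 reached that intensity on any array. These were Cd68, with 182 with IL-21, 190 with IL-6 plus TGFb1 and 180 with medium, and Zbtb46, with 181, 191 and 212 in the same order. The 9 mast cell and basophil markers, the 5 eosinophil markers and the 8 neutrophil markers were all below it on all 3 arrays. Of the 6 measured B cell markers Cd79b alone was above it. Of the 2 CD8 T cell markers, Cd8b1 was above it on every array, with 731 with IL-21, 616 with IL-6 plus TGFb1 and 810 with medium, and Cd8a was below it. The 5 NK cell markers were below it on all arrays, with a summed intensity of 303 with IL-21, 382 with IL-6 plus TGFb1 and 272 with medium. Among them Klrd1, a lectin-like receptor gene, had 98.1 with IL-21, 173 with IL-6 plus TGFb1 and 66.0 with medium. The other NK cell markers, Ncr1, Klrb1c, Klra8 and Klri2, were nearly level. Their log2 differences from medium lay between -0.03 (Ncr1 with IL-21) and 0.07 (Klri2 with IL-6 plus TGFb1). Whether CD8 T cells or other cells contributed to the differences described here was not tested.

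Cysltr1, on chromosome X, encodes the receptor with high affinity for leukotriene D4 that the asthma drug montelukast blocks. Its intensity was 466 with IL-21, 2483.5 with IL-6 plus TGFb1 and 133 with medium. The IL-6 plus TGFb1 array was far above the others, and the IL-21 array stood between it and medium. The gene was 3.50-fold higher with IL-21 than with medium, a log2 difference of 1.81, and 18.6-fold higher with IL-6 plus TGFb1 than with medium, a log2 difference of 4.22. Medium was below the filter of 187, at an intensity where a low transcript level and background signal cannot be told apart, so these folds describe the deposited values and the folds in transcript are not known exactly. In bulk RNA, fewer cells that express a gene and less RNA per cell cannot be told apart, so the values do not say how many cells carried the transcript.

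Cysltr2, on chromosome 14, encodes the other cysteinyl leukotriene receptor, which binds leukotrienes C4 and D4 about equally. Its intensity was 271 with IL-21, 243 with IL-6 plus TGFb1 and 59.8 with medium. Here the treated arrays were close to each other and the medium array was dim, under the 25th percentile of its array (83.8). The gene was 4.48-fold higher with IL-21 than with medium (2.16 on the log2 scale) and 4.02-fold higher with IL-6 plus TGFb1 than with medium (2.01). Because the medium value may be largely background, these folds are not exact either, and their size depended on how low values were treated: with values under the 20th percentile of 69.0 raised to it, the differences were 1.96 and 1.80.

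**Figure D1:**
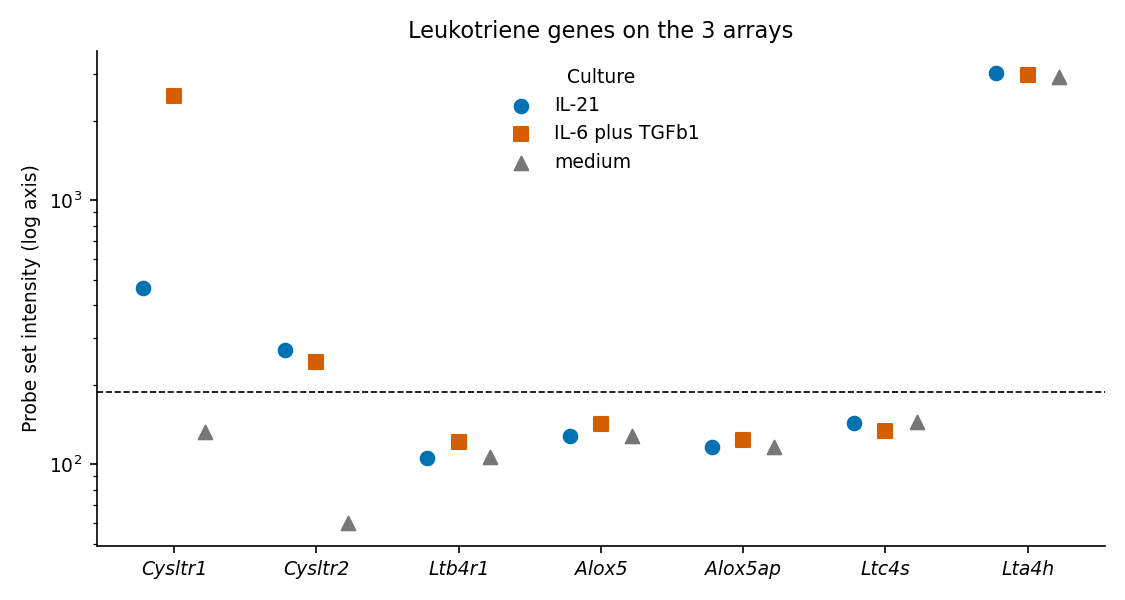
Probe set intensity (log axis) of the 7 leukotriene genes, with 1 point for each array: IL-21 (circles), IL-6 plus TGFb1 (squares) and medium (triangles); the dashed line is the brightness filter of 187. Cysltr1 and Cysltr2 are above the line on the treated arrays and below it on medium, and the 3 points of every other gene lie close together. Heights of different genes are not comparable, since each probe set has its own response.

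Ltb4r1, on chromosome 14, encodes the high-affinity receptor for leukotriene B4, a chemoattractant receptor known from neutrophils and effector T cells. Its intensity was 105 with IL-21, 121 with IL-6 plus TGFb1 and 106 with medium. All 3 values were below the filter, and the log2 differences from medium were -0.01 with IL-21 and 0.19 with IL-6 plus TGFb1. Over the 8932 genes below the filter the central 95% of differences ran from -0.33 to 0.14 with IL-21 and from -0.24 to 0.17 with IL-6 plus TGFb1, so the second value was just above that range. It was smaller than the 95th percentile of the gap between paired dim probe sets, 0.30.

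Among the synthesis genes, Lta4h was the one measured above the filter. Leukotriene A4 hydrolase is found in many cell types, including those that lack 5-lipoxygenase. Lta4h had an intensity of 3028 with IL-21, 2984 with IL-6 plus TGFb1 and 2932 with medium, so that the 3 arrays were nearly level. Its log2 difference from medium was 0.05 with IL-21 and 0.03 with IL-6 plus TGFb1, beside medians of 0.04 and 0.02 over all compared genes.

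Alox5, which encodes 5-lipoxygenase, had an intensity of 128 with IL-21, 142 with IL-6 plus TGFb1 and 128 with medium. Alox5ap, which encodes the 5-lipoxygenase activating protein that presents arachidonic acid to the enzyme, had 116 with IL-21, 124 with IL-6 plus TGFb1 and 116 with medium. In both genes the IL-21 and medium values were exactly equal in the deposited table, as they were for 19.1% of all probe sets. The difference from medium with IL-6 plus TGFb1 was 0.14 for Alox5 and 0.09 for Alox5ap. Ltc4s, which encodes leukotriene C4 synthase, had 143 with IL-21, 134 with IL-6 plus TGFb1 and 145 with medium, with differences of -0.02 and -0.11. These 3 genes stayed below the filter on all arrays, at an intensity where a low transcript level and background signal cannot be told apart.

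With IL-21 against medium, 2 of the 3 compared leukotriene genes were past 2-fold on the higher side and 0 on the lower side, where 0.482% of all compared genes were past 2-fold on the higher side and 0.109% on the lower side. With IL-6 plus TGFb1 against medium the same counts were 2 and 0, where the shares of all compared genes were 0.673% and 0.364%. The 2 genes were Cysltr1 and Cysltr2 each time, and since the set was chosen with these differences known, nothing is read from the counts. Both comparisons subtract the same medium array, so a low reading of a gene on that array would raise both of its differences.

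**Figure D2:**
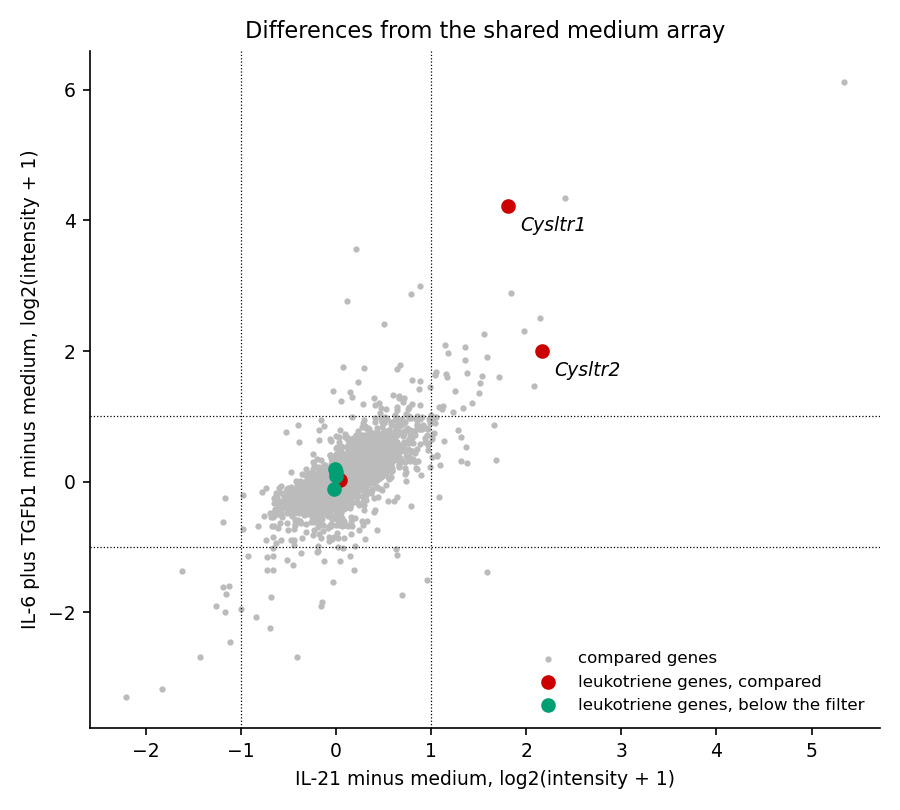
Log2 difference from medium of each of the 11003 compared genes (grey), with IL-21 on the x axis and IL-6 plus TGFb1 on the y axis; dotted lines mark 2-fold, red points are the 3 compared leukotriene genes and green points the 4 below the filter. Cysltr1 (1.81 and 4.22) and Cysltr2 (2.16 and 2.01) lie far to the upper right, while the other leukotriene genes lie between -0.11 and 0.19 on both axes.

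The comparison of the treated arrays does not use the medium array, and it set the cysteinyl leukotriene receptor genes apart from each other. Cysltr1 was 466 with IL-21 against 2483.5 with IL-6 plus TGFb1, which is 5.32-fold lower with IL-21 (a log2 difference of -2.41), with both values above the filter. Cysltr2 was 271 with IL-21 against 243 with IL-6 plus TGFb1, a difference of 0.16. With IL-21, 0 of the 3 compared leukotriene genes were past 2-fold on the higher side and 1 on the lower side, where 0.273% and 0.191% of all compared genes were. The set was chosen with the differences between these arrays known, so nothing is read from these counts either. Lta4h had a difference of 0.02. The 4 genes below the filter ran from -0.20 for Ltb4r1 to 0.09 for Ltc4s. One culture had IL-21 and the other IL-6 together with TGFb1, so the parts of the single cytokines cannot be told apart.

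The pattern of each receptor gene over the 3 arrays was set beside that of all other compared genes, by the distance between genes in the plane of both differences from medium (in log2 units, without provisional symbols, 10579 genes). For Cysltr2 there were 4 genes within 0.5 units. The nearest was Lilr4b, an immunoglobulin-like receptor gene (distance 0.04), with 461 with IL-21, 428 with IL-6 plus TGFb1 and 104 with medium. Plac8 followed (0.04), with 1430 with IL-21, 1244 with IL-6 plus TGFb1 and 309 with medium. The other near genes were Igfbp4, an insulin-like growth factor binding protein gene (0.36), Gatm, an enzyme gene of creatine synthesis (0.50), and the transglutaminase gene Tgm2 (0.55). In these genes, chosen for this likeness, both treated arrays were above medium, and they differed from each other by 0.11 (Lilr4b) to 0.61 (Tgm2, higher with IL-21).

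For Cysltr1 there were 0 genes within 0.5 units. The nearest was Il23r, which encodes a subunit of the IL-23 receptor (distance 0.62), with 418 with IL-21, 1596 with IL-6 plus TGFb1 and 77.9 with medium. Its differences from medium were 2.41 with IL-21 and 4.34 with IL-6 plus TGFb1. Ahr, a ligand-activated transcription factor gene, was next (1.32), with differences of 1.84 and 2.89. Timp1, a metalloproteinase inhibitor gene (1.53), Emp1, a membrane protein gene (1.69), and Il17f, which encodes a Th17 cytokine (1.73), were farther away. Their differences from medium with IL-21 were 0.88, 0.79 and 0.21, all short of 2-fold, against 1.81 for Cysltr1. With IL-6 plus TGFb1 they were 2.99, 2.87 and 3.56. On medium Il23r (77.9), Timp1 (86.9), Emp1 (162) and Il17f (160) were below the brightness filter, and Ahr (262) was above it. With IL-21 Timp1 (161) and Il17f (185) were also below the filter, so they passed it only through the IL-6 plus TGFb1 array. In all 5 genes, as in Cysltr1, the IL-6 plus TGFb1 array was the highest of the 3. The genes were chosen for likeness in these same differences, so this was nearly fixed in advance. With 3 arrays such a likeness is a description of these arrays only.

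**Figure D3:**
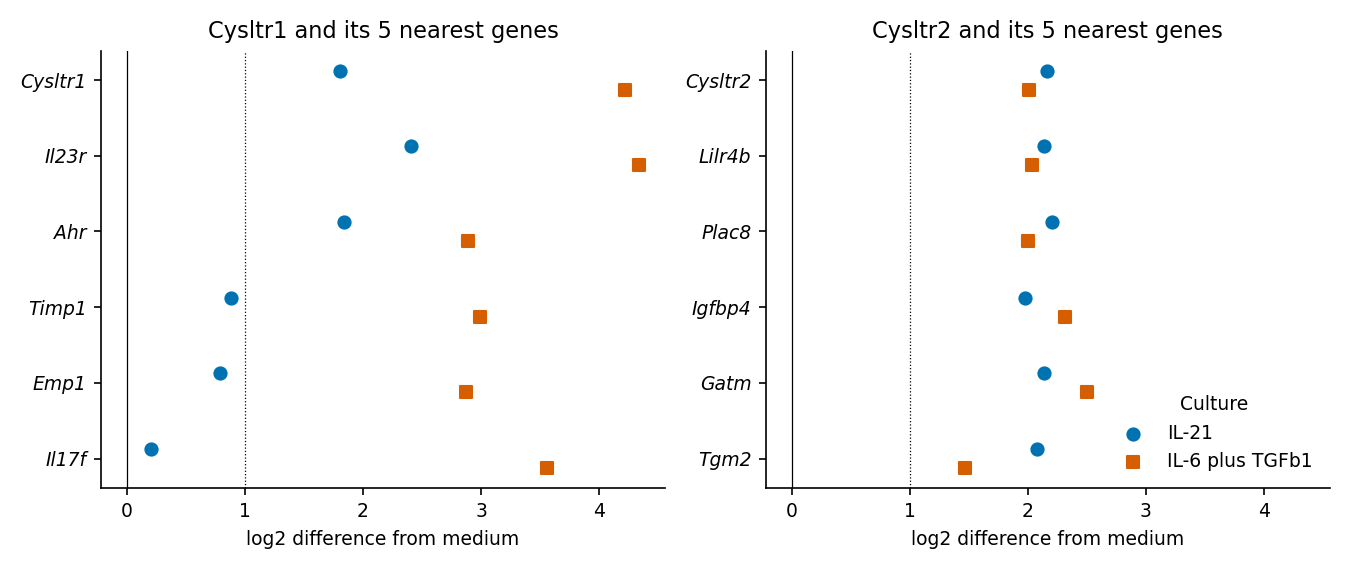
Log2 difference from medium (x axis) of Cysltr1 with its 5 nearest genes (left) and of Cysltr2 with its 5 nearest genes (right), for IL-21 (circles) and IL-6 plus TGFb1 (squares); the dotted line marks 2-fold. In the left panel every square lies right of its circle, and in the right panel circle and square lie within 0.61 log2 units of each other in each gene.

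Promoter sequences are shown for Cysltr2, which differed from medium in both treated cultures, and for Ltb4r1, the receptor gene on the same chromosome whose values were nearly level. They are the 250 bases before the annotated start of each gene, from RefSeq (GRCm38.p6), 5′ to 3′ on the strand of the gene. That of Cysltr2 is chr14:73049115-73049364 on the minus strand and that of Ltb4r1 is chr14:55765712-55765961 on the plus strand. Of the 7 genes, 5 had an entry in the table used, and Cysltr1 and Alox5ap were not among them. Capitals mark the letters of a searched motif.
Cysltr2: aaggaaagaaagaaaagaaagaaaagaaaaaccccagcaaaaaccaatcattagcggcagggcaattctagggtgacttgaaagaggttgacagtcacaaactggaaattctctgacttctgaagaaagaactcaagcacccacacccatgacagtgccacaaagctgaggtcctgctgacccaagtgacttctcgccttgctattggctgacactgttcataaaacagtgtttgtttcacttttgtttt
Ltb4r1: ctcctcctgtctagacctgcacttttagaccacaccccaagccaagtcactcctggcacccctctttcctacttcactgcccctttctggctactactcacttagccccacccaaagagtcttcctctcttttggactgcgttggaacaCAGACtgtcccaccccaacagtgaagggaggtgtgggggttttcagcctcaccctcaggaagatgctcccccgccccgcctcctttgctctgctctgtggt

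The windows differ in base composition, with 42.8% G or C in Cysltr2 and 56.8% in Ltb4r1. They were searched on both strands for 5 short motifs of factors known from helper T cells: TTCNNNGAA of STAT proteins, TGANTCA of AP-1, GCGTG of the Ahr core, AGGTCA of ROR receptors and CAGAC of SMAD proteins. None of these motifs was found in the window of Cysltr2. Ltb4r1 held 1 match to CAGAC that begins 101 bases before the start. Among the 32851 windows of this length in the table, 7.02% held TTCNNNGAA, 6.75% TGANTCA, 28.2% GCGTG, 14.02% AGGTCA and 42.2% CAGAC. The other windows, of Alox5, Ltc4s and Lta4h, held 1 match between them, to CAGAC in Lta4h. No match says only that these letters are not in this window.

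The rest of the pathway was described through 7 lists: leukotriene transport and conversion, arachidonate release and recycling, other lipoxygenases, prostanoid synthesis, prostanoid receptors, receptors of the purinergic-like branch to which the cysteinyl leukotriene receptors belong, and the G proteins and effectors they signal through. Of 107 listed genes 97 were measured and 51 compared. With IL-21 against medium 0 of the 51 were at least 2-fold higher or lower, where 0.482% of all compared genes were higher and 0.109% lower. With IL-6 plus TGFb1 against medium 2 were past 2-fold on the higher side and 1 on the lower side. The shares of all compared genes there were 0.673% and 0.364%. At shares this low nothing is read from these counts. The medians of the 51 were 0.14 with IL-21 and 0.12 with IL-6 plus TGFb1, beside 0.04 and 0.02 over all compared genes. Over all 97 measured genes, without the brightness filter, the medians were 0.00 in both comparisons, with 43 genes above 0 and 40 below with IL-21, and 43 above and 42 below with IL-6 plus TGFb1.

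The compared genes that move or change leukotrienes were within 2-fold of medium in both cultures. Among all compared genes 0.482% were past 2-fold on the higher side and 0.109% on the lower side with IL-21. With IL-6 plus TGFb1 the shares were 0.673% and 0.364%, so nothing is read from this. Of 15 listed 6 were compared, and 6 were above 0 with IL-21 (median 0.15) and 5 with IL-6 plus TGFb1 (median 0.19), where 59.8% and 56.3% of all compared genes were above 0. After quantile normalization the IL-21 comparison had 5 above 0 and a median of 0.06, and over all 13 measured genes without the filter 6 were above 0 and 6 below in each comparison. Cotl1, a coactosin-like protein that binds 5-lipoxygenase, had the highest difference with IL-21 (0.26), and Abcc1, the exporter of leukotriene C4, the lowest (0.02). With IL-6 plus TGFb1 the highest was Ptgr1, an oxidoreductase that inactivates leukotriene B4 (0.52), with intensities of 208 with IL-21, 252 with IL-6 plus TGFb1 and 175 with medium, so that it passed the filter only through the treated arrays. Its relative Ptgr2 was the lowest (-0.06). The further receptor genes Oxgr1 and Gpr17, named after their values were seen, were below the filter on all arrays. Ltb4r2, a further receptor gene of this list, had no probe set of exactly 1 symbol and was not measured.

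In the list of arachidonate release and recycling, 8 of 20 genes were compared. Of these, 8 were above 0 in each treated culture, with medians of 0.13 with IL-21 and 0.18 with IL-6 plus TGFb1. Over all compared genes 59.8% were above 0 with IL-21 and 56.3% with IL-6 plus TGFb1. After quantile normalization 6 of the 8 were above 0 and 2 below in each. Over all 19 measured genes without the filter 8 were above 0 and 7 below with IL-21. There 10 were above 0 and 5 below with IL-6 plus TGFb1. Mgll, a lipase that frees arachidonic acid from an endocannabinoid, had an intensity of 184 with IL-21, 313 with IL-6 plus TGFb1 and 135 with medium, and it passed the filter only through the IL-6 plus TGFb1 array. It was 2.31-fold higher with IL-6 plus TGFb1 than with medium (1.21), where 0.673% of all compared genes were at least 2-fold higher. Its difference with IL-21 was 0.45. The lowest differences were those of Acsl4, which activates arachidonic acid for storage in lipids, with IL-21 (0.07) and of the lysophospholipid acyltransferase gene Mboat7 with IL-6 plus TGFb1 (0.05). Pla2g4a, which encodes the cytosolic phospholipase that commonly starts leukotriene synthesis, was at 102 on all 3 arrays, below the filter. It is named here after its values were seen. Of the other listed phospholipase A2 genes, Pla2g6, Pla2g12a and Pla2g15 were above the filter on all arrays. The rest of those measured were below it. All 6 genes of other lipoxygenases were below the filter.

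On the prostanoid side 6 of 16 synthesis genes and 5 of 9 receptor genes were compared. Akr1c18, an aldo-keto reductase known for progesterone breakdown and prostaglandin F formation, had an intensity of 1364 with IL-21, 248 with IL-6 plus TGFb1 and 703 with medium. The treated arrays lay on either side of medium, with differences of 0.95 with IL-21 and -1.50 with IL-6 plus TGFb1, and the gene was 5.49-fold higher with IL-21 than with IL-6 plus TGFb1 (2.46). The other extremes of that list were Ptges3 with IL-21 (-0.02) and the carbonyl reductase gene Cbr1 with IL-6 plus TGFb1 (0.27). Among the receptors, the prostacyclin receptor gene Ptgir was the highest in both cultures (0.43 with IL-21 and 0.32 with IL-6 plus TGFb1) and Ptger4, a prostaglandin E receptor gene, the lowest (-0.16 and -0.30).

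Of the 24 purinergic-like receptor genes 13 were compared, with a median difference of 0.35 with IL-21 and 0.12 with IL-6 plus TGFb1. After quantile normalization these medians were 0.25 and 0.15. Over all 21 measured genes without the filter the medians were 0.00 in both comparisons. There 10 genes were above 0 and 6 below with IL-21, and 8 above and 10 below with IL-6 plus TGFb1. The cysteinyl leukotriene receptor genes are not counted in this list. Gpr65, a proton-sensing receptor gene, had 885 with IL-21, 1314 with IL-6 plus TGFb1 and 538 with medium. It was the highest in both cultures, with differences of 0.72 and 1.29. With IL-6 plus TGFb1 it was the only one of the 13 past 2-fold, where 0.673% of all compared genes were at least 2-fold higher. The lowest were the thrombin receptor gene F2r with IL-21 (-0.08) and the lysophosphatidylserine receptor gene Gpr174 with IL-6 plus TGFb1 (-0.56).

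The signalling genes downstream of the receptors were mostly close to medium. Of 17 listed 13 were compared, with medians of 0.08 with IL-21 and 0.11 with IL-6 plus TGFb1. Of these, 0 were past 2-fold, where 0.482% of all compared genes were higher and 0.109% lower with IL-21. With IL-6 plus TGFb1 those shares were 0.673% and 0.364%. After quantile normalization the medians were 0.03 and 0.06, with 7 genes above 0 with IL-21 and 9 with IL-6 plus TGFb1. Over all 15 measured genes without the filter the medians were 0.08 and 0.11. Gnaq, a G protein subunit through which these receptors raise calcium, was above the filter on all arrays, at 503 with IL-21, 483 with IL-6 plus TGFb1 and 468 with medium, and is named here after its values were seen. Arrb1, a beta-arrestin gene, was the highest in both cultures (0.79 with IL-21 and 0.76 with IL-6 plus TGFb1). Prkca, which encodes protein kinase C alpha, was the lowest, with 2563 with IL-21, 1874 with IL-6 plus TGFb1 and 3490 with medium, and differences of -0.45 and -0.90.

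**Figure D4:**
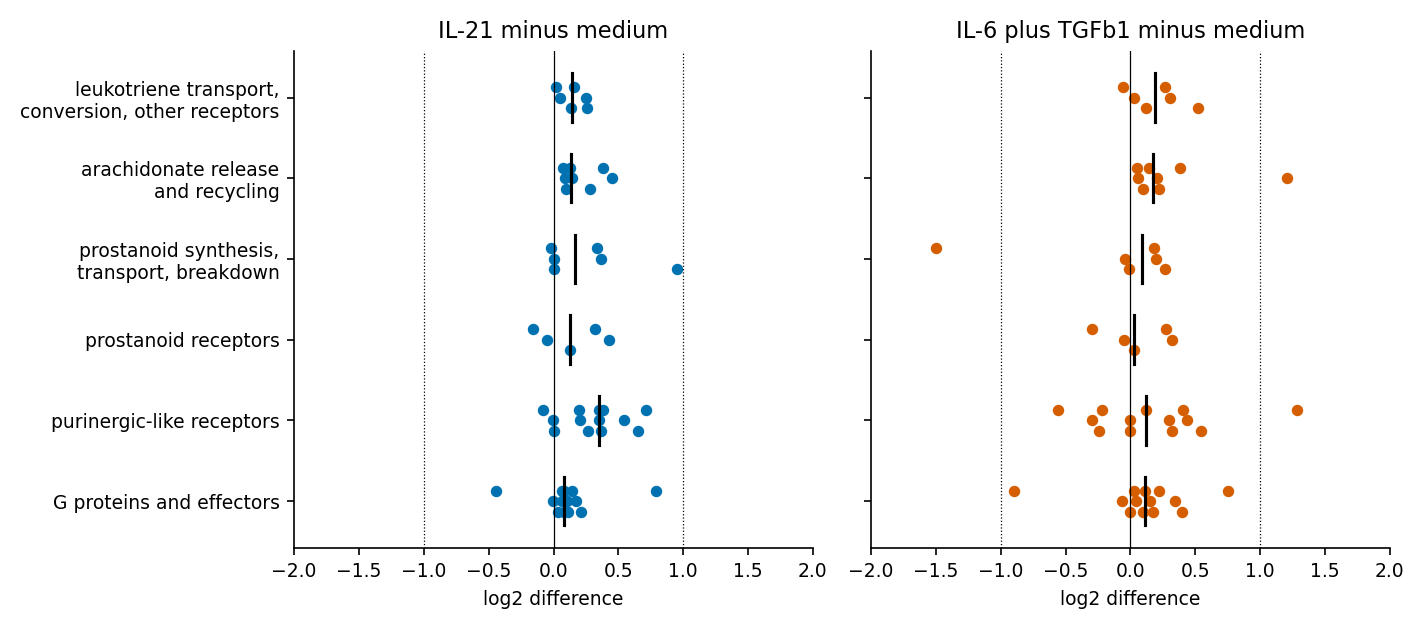
Log2 differences from medium (x axis) of the 51 compared genes of 6 pathway lists (rows), with IL-21 on the left and IL-6 plus TGFb1 on the right; points are genes, short bars list medians and dotted lines 2-fold. With IL-21 no point is past 2-fold, and with IL-6 plus TGFb1 Gpr65 (1.29), Mgll (1.21) and Akr1c18 (-1.50) are.

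Between the treated cultures Akr1c18 was the 1 gene of these 51 past 2-fold on the side higher with IL-21, and 0 were past it on the lower side. Among all compared genes 0.273% were past it on the higher side and 0.191% on the lower side. Mgll had a difference of -0.76 and Gpr65 of -0.57 in this comparison. Both were named for being past 2-fold with IL-6 plus TGFb1 against medium, which made a negative sign likely in advance. Of the 51 genes 30 were above 0 and 18 below, so nothing is read from these signs.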

How the data were processed

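The 3 arrays were hybridized by a service company after the RNA was fragmented and biotinylated with an Affymetrix whole-transcript kit, per the labels' protocols. The authors deposited a linear intensity per probe set and array (28815 probe sets), a unit inferred from values between 25.5 and 20652. The sources used here do not give the summarization and normalization. The build was mm8 per the submitters' processing notes, and no coordinates of the array were used.

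Gene names came from the annotation of the platform, where 21780 probe sets had 1 symbol, 1605 had several and 5430 had none listed. Of the 21780, 21689 matched a RefSeq gene by Entrez identifier (GRCm38.p6) and 0 symbols changed. Where a gene had several probe sets, the one brightest on average was taken. Values were used as log2(intensity + 1) in Python 3.11.15 with pandas 2.3.3, with no further normalization. With 1 array per group no test was run, and at least 2-fold was taken as the mark. The number of arrays limits the precision. The steps were tested on simulated data. Named were the 7 genes, list genes past 2-fold in any comparison, the highest and lowest of each list against medium, and the 5 genes nearest to each cysteinyl leukotriene receptor gene. The genes and lists were chosen with earlier results of these data known. The 8 alternatives covered the choice of probe set, the pseudocount, the scaling, low values and the brightness filter.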

Additional observations from a re-analysis of the deposited data

How the results depend on the processing

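Each leukotriene gene had 1 probe set, so the choices of probe set could not change its values. Under the 8 alternatives the difference of Cysltr1 ran from 1.70 to 1.87 with IL-21 and from 4.07 to 4.26 with IL-6 plus TGFb1, both against medium, and from -2.46 to -2.37 between the treated cultures. That of Cysltr2 ran from 1.92 to 2.23 with IL-21 and from 1.77 to 2.03 with IL-6 plus TGFb1. The differences of Ltb4r1, Alox5, Alox5ap, Ltc4s and Lta4h stayed between -0.11 and 0.22 against medium. The brightness filters do not enter a single difference, so 4 of the 8 alternatives could change these values. With the stricter filter of 785, Cysltr2 was no longer compared and 1 leukotriene gene was at least 2-fold higher in each comparison against medium, and 1 pathway list gene in place of 2 was at least 2-fold higher with IL-6 plus TGFb1, since Mgll was too dim. With each array centred on its median, 1 pathway list gene, in place of 0, was at least 2-fold higher with IL-21. The median of the 51 pathway list genes was 0.08 with IL-21 and 0.10 with IL-6 plus TGFb1 after quantile normalization, and 0.21 and 0.15 with centring. That of the prostanoid receptors with IL-6 plus TGFb1 was -0.01 after quantile normalization, against 0.03 as reported. No paired analysis was possible because each group had 1 array, and for the same reason no replicate could be left out.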
